A study of Mus musculus with 12 samples.

Results

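Sphingosine-1-phosphate (S1P) is a lipid signal, and 9 genes that make it, break it down or carry it out of cells were followed in whole lung: the kinases Sphk1 and Sphk2, the lyase Sgpl1, the phosphatases Sgpp1, Sgpp2, Plpp1 and Plpp3, and the exporters Spns2 and Mfsd2b. They were chosen by name for their roles, with earlier results of these data known, and the deposited table of 56748 genes held a row for each of the 9. All 9 passed the filter on low counts, which kept 20229 genes. RNA had been sequenced from lungs of 4.5-month-old mice that carried MMTV-PyMT, an oncogene (polyoma middle T) under the mouse mammary tumour virus promoter, which gives mammary tumours that spread to the lung. By the design text of the series every group also carried MMTV-Cre, a recombinase under the same promoter, although the sample labels of the controls name MMTV-PyMT alone. The S1pr1 KO group (labelled S1pr1_KO) was MMTV-Cre;S1pr1fl/fl; MMTV-PyMT, the C3 KO group (labelled C3_KO) was MMTV-Cre;C3Tdt:MMTV-PyMT, and the wild-type controls (WT) were MMTV-Cre; MMTV-PyMT, with 4 libraries in each group. The title of the series asks how conditional loss of the S1P receptor S1pr1 or of complement C3 bears on lung metastasis. The MMTV promoter acts mainly in mammary epithelium, so a deletion need not show in whole lung, and nothing in the labels says that the libraries of a group came from separate animals. P-values therefore measure the spread between these libraries.

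As background, sphingosine kinases phosphorylate sphingosine to S1P inside the cell. S1P phosphatases of the endoplasmic reticulum turn it back into sphingosine, and S1P lyase cleaves it for good, which is the only exit from the sphingolipid pathway. Exported S1P is high in blood and lymph and low inside tissues, and lymphocytes leave lymphoid organs along that gradient through the receptor S1PR1. Red cells, platelets and endothelium are the main sources of circulating S1P, and lipid phosphate phosphatases at the cell surface remove it.

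Library totals ran from 32274797 to 53063470 counts. The targeted genes did not follow the labels in every library. Levels in CPM are counts scaled to each library's total over the tested genes, adjusted by TMM factors. S1pr1 read 132, 142 and 154 CPM in S1pr1 KO 1, 3 and 4, against 295 to 491 in WT. The library labelled S1pr1 KO 2 had 366. C3 read 475, 465 and 601 CPM in C3 KO 1, 2 and 3, while the library labelled C3 KO 4 had 1416, against 787 to 1025 in WT. Among markers of other cell types, cardiomyocyte genes summed to 804 to 3219 CPM in S1pr1 KO, 421 to 822 CPM in C3 KO and 172 to 661 CPM in WT. Ciliated cell genes summed to 473 to 628 CPM in S1pr1 KO, 316 to 533 CPM in C3 KO and 237 to 401 CPM in WT. T cell genes summed to 18.8 to 42.5 CPM in S1pr1 KO, 46.4 to 73.4 CPM in C3 KO and 40.4 to 66.4 CPM in WT. Alveolar type 2 markers, led by the surfactant gene Sftpc, were abundant in every library (18137 to 26346 CPM).

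Per kilobase of gene, the surface phosphatases were the most abundant of the 9 transcripts and the blood cell exporter the scarcest. On the deposited FPKM scale (fragments per kilobase of gene, scaled to library size), Plpp3 averaged 101 ± 4.1 in S1pr1 KO, 113 ± 2.27 in C3 KO and 119 ± 16.7 in WT (SD, n = 4 each). Plpp1 followed at 56.5 ± 3.56 FPKM in S1pr1 KO, 60.5 ± 8.50 FPKM in C3 KO and 63.3 ± 12.9 FPKM in WT. Spns2 came next at 36.3 ± 6.25 FPKM in S1pr1 KO, 33.2 ± 8.86 FPKM in C3 KO and 36.5 ± 4.21 FPKM in WT. These 3 levels kept their order in 12 of 12 libraries. Plpp3 alone held 39.4% to 49.1% of the summed FPKM of the 9 genes.

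The intracellular enzymes formed a narrow band below them. Over the 12 libraries the mean level was 12.3 FPKM for Sgpl1, 12.04 for Sgpp2, 9.93 for Sphk1, 9.53 for Sphk2 and 8.47 for Sgpp1. Neighbours within this band changed places between libraries: Sgpl1 was above Sgpp2 in 8 of 12, Sgpp2 above Sphk1 in 10, Sphk1 above Sphk2 in 9, and Sphk2 above Sgpp1 in 9. Mfsd2b lay apart at a mean of 1.92 FPKM, below Sgpp1 in all 12. The median ratio of Spns2 to Mfsd2b was 19.8 on the FPKM scale, with a lowest value of 8.73 in C3 KO 3 and a highest of 31.7 in C3 KO 2.

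**Figure D1:**
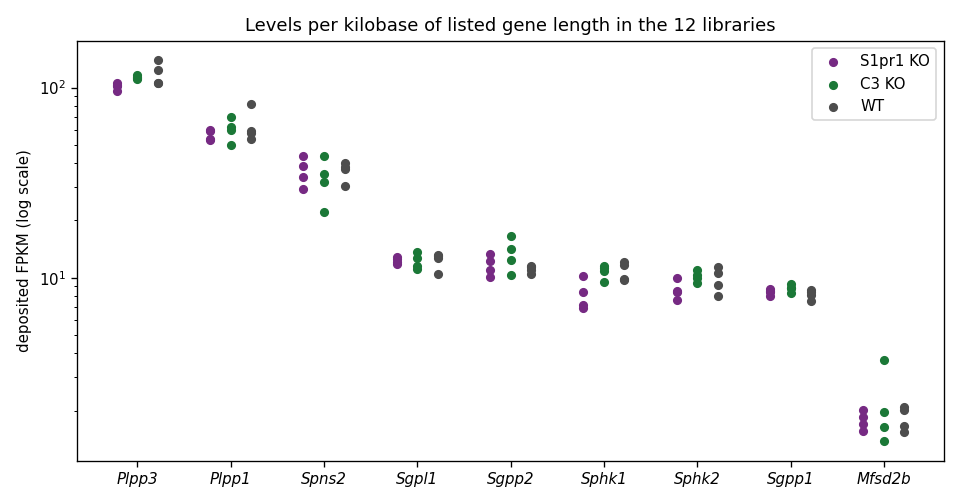
Deposited FPKM (log axis) of the 9 genes in each of the 12 libraries, one point per library, with S1pr1 KO, C3 KO and WT side by side for each gene. Plpp3, Plpp1 and Spns2 stand above the other genes, 5 genes with means from 8.47 to 12.3 FPKM overlap, and Mfsd2b lies lowest, with C3 KO 3 at 3.67 FPKM as its highest point.

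No gene of the set passed edgeR's test in any comparison, and Sphk1 passed 2 other tests in S1pr1 KO against WT. In edgeR's quasi-likelihood test, with Benjamini-Hochberg adjustment over all genes, 0 of 9 had an adjusted p under 0.05 in S1pr1 KO against WT, where 1.35% of all genes did, 0 of 9 in C3 KO against WT (0.00989% of all genes) and 0 of 9 in S1pr1 KO against C3 KO (0.0% of all genes). At an unadjusted p under 0.05 the counts were 2 of 9 (Sphk1 and Plpp3) in S1pr1 KO against WT, beside 18% of all genes, 0 of 9 in C3 KO against WT, beside 11%, and 1 of 9 (Sphk1) in S1pr1 KO against C3 KO, beside 12%. DESeq2 called 1 of 9 in S1pr1 KO against WT, Sphk1, where it called 6.34% of all genes, and limma voom with quality weights called the same gene, where it called 4.59%. Both called 0 of 9 in C3 KO against WT, where DESeq2 called 0.878% and voom 0.104% of all genes, and in S1pr1 KO against C3 KO, where they called 1.57% and 0.178%. By sign, 2 genes were above 0 and 7 below in S1pr1 KO against WT, beside 49.8% and 50.2% of all genes, 4 above and 5 below in C3 KO against WT (49.8% and 50.2%), and 2 above and 7 below in S1pr1 KO against C3 KO (50.7% and 49.3%). The 4 libraries of each group were fully apart for 0 of 9 genes in S1pr1 KO against WT, beside 11.3% of all genes, for 0 of 9 in C3 KO against WT (6.09%), and for 1 of 9, Plpp3, in S1pr1 KO against C3 KO (6.4%). Their median log2 fold change was -0.031 for S1pr1 KO over WT (all genes -0.0011), -0.011 for C3 KO over WT (all genes -0.0010) and -0.15 for S1pr1 KO over C3 KO (all genes 0.0031). The comparisons share libraries, so their values are not independent of each other.

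**Figure D2:**
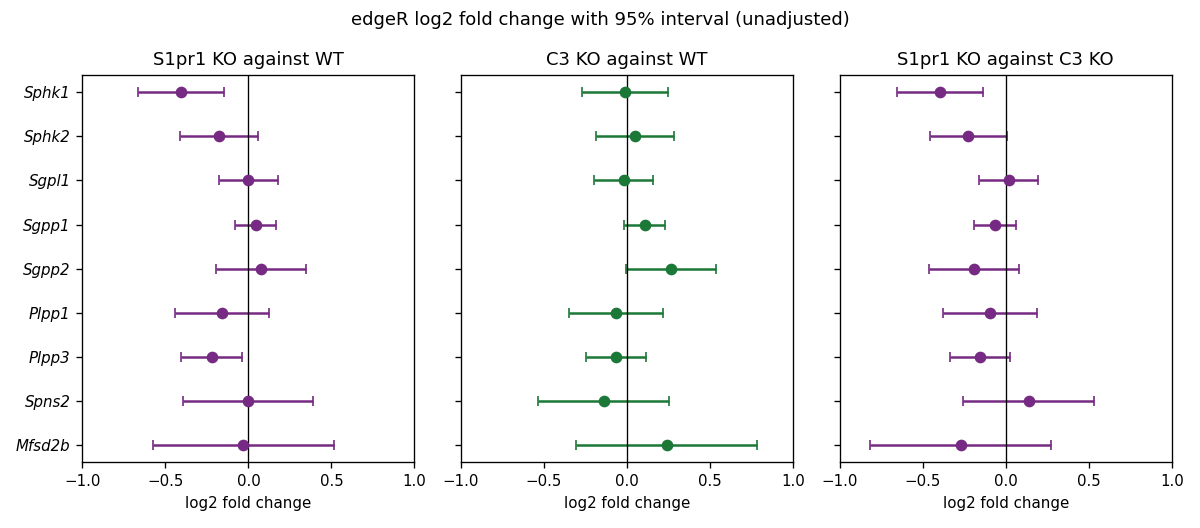
Log2 fold change of each gene (points) with its unadjusted 95% interval (bars) from the edgeR fit, in 3 panels, S1pr1 KO against WT, C3 KO against WT, then the knockouts against each other (S1pr1 KO over C3 KO); a value below 0 is lower in the group named first. In both panels of S1pr1 KO the interval of Sphk1 lies below 0, as does that of Plpp3 against WT, while the widest intervals are those of Mfsd2b.

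Sphk1, the kinase found mainly in the cytosol and at the plasma membrane and the one that growth factors and cytokines induce, had the lowest fold change by value in S1pr1 KO. The gene (ENSMUSG00000061878) lies on the plus strand of chromosome 11 from 116421751 to 116427501 in GRCm39. Its level was 40.5, 48.5, 33.4 and 34.5 CPM across S1pr1 KO 1 to 4, 51.9, 45.4, 55.2 and 53.8 CPM across C3 KO 1 to 4, and 46.9, 47.0, 55.8 and 58.2 CPM across WT 1 to 4. S1pr1 KO 1, 3 and 4 lay below every WT and every C3 KO library, and the library labelled S1pr1 KO 2 lay within both ranges. The mean was 39.2 ± 6.93 CPM in S1pr1 KO, 51.6 ± 4.33 CPM in C3 KO and 52.0 ± 5.91 CPM in WT (SD, n = 4 each). Against WT the log2 fold change was -0.40 (SE 0.12, edgeR adjusted p = 0.103), a ratio of 0.755 with a 95% interval of 0.631 to 0.904.

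That value did not pass in edgeR but passed in DESeq2 (-0.41, adjusted p = 0.0361) and in limma voom with quality weights (-0.51, adjusted p = 0.0256). It was -0.52 (edgeR adjusted p = 0.0518) once the library labelled S1pr1 KO 2 was left out. With the one labelled C3 KO 4 left out as well it was -0.52 and passed (edgeR adjusted p = 0.0355). That fit, whose omitted libraries were picked by the level of their targeted gene, called 1 of 9 beside 2.31% of all genes in S1pr1 KO against WT, 0 of 9 beside 0.152% in C3 KO against WT and 0 of 9 beside 0.0147% for S1pr1 KO over C3 KO. Against C3 KO the log2 fold change was -0.39 (SE 0.12, edgeR adjusted p = 0.261, DESeq2 adjusted p = 0.0875). In C3 KO against WT it was -0.011 (SE 0.12, edgeR adjusted p = 0.987), and the interval of the ratio ran from 0.830 to 1.19.

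Markers of other cell types differed between these libraries too. Alveolar type 1 genes summed to 6041, 5535, 4718 and 4795 CPM in S1pr1 KO 1 to 4, 5631 to 5868 CPM in C3 KO and 5240 to 5678 CPM in WT, so the lowest 2 of all 12 were S1pr1 KO 3 and 4, which were also lowest in Sphk1. Over the 12 libraries Sphk1 had a Pearson r of 0.62 with the alveolar type 1 score, and of -0.38 without those 2 libraries, a description with no test. Among the marker scores its r was largest in size with the mammary epithelial score, at -0.68, and -0.39 without those 2 libraries. Genes on the mammary epithelial list, led by the keratins Krt8, Krt19 and Krt18, summed to 593 to 754 CPM in S1pr1 KO. Their sums were 504 to 657 CPM in C3 KO and 541 to 637 CPM in WT. Whole-lung RNA does not tell whether these transcripts came from mammary or lung epithelium, so neither the sums nor the score measure metastasis. Alveolar macrophage genes summed to 547 to 640.3 CPM in S1pr1 KO, 634 to 1926 CPM in C3 KO and 675 to 874 CPM in WT. In bulk tissue, fewer cells of a type and less RNA per cell cannot be told apart, and the part of these sums and of the T cell, ciliated and cardiomyocyte sums in the Sphk1 values was not tested.

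Sphk2, the kinase found mainly in the nucleus, endoplasmic reticulum and mitochondria, gave smaller differences with overlapping groups. Sphk2 (ENSMUSG00000057342, chromosome 7, 45358891 to 45367426, minus strand) read 32.0, 41.5, 35.2 and 35.9 CPM in S1pr1 KO, 39.1, 43.2, 41.2 and 45.4 CPM in C3 KO, and 38.6, 33.4, 47.3 and 44.3 CPM in WT. The library labelled S1pr1 KO 2 was the highest of its group, as for Sphk1, and the WT range held 3 of the 4 S1pr1 KO libraries. The log2 fold change was -0.18 in S1pr1 KO against WT (SE 0.11, edgeR adjusted p = 0.419), 0.047 in C3 KO against WT (SE 0.11, edgeR adjusted p = 0.916) and -0.22 in S1pr1 KO against C3 KO (SE 0.11, edgeR adjusted p = 0.434). In the deposited annotation 2546 bases of Sphk2 overlap Rpl18, a ribosomal protein gene on the other strand with a mean of 334 CPM, and 737 bases overlap the clock output gene Dbp. The strand setting of the count is not given, so Sphk2 reads may include some from these genes. On the FPKM scale Sphk1 was 0.946 ± 0.136 times Sphk2 in S1pr1 KO, 1.07 ± 0.118 times in C3 KO and 1.11 ± 0.0900 times in WT (SD, n = 4 each).

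**Figure D3:**
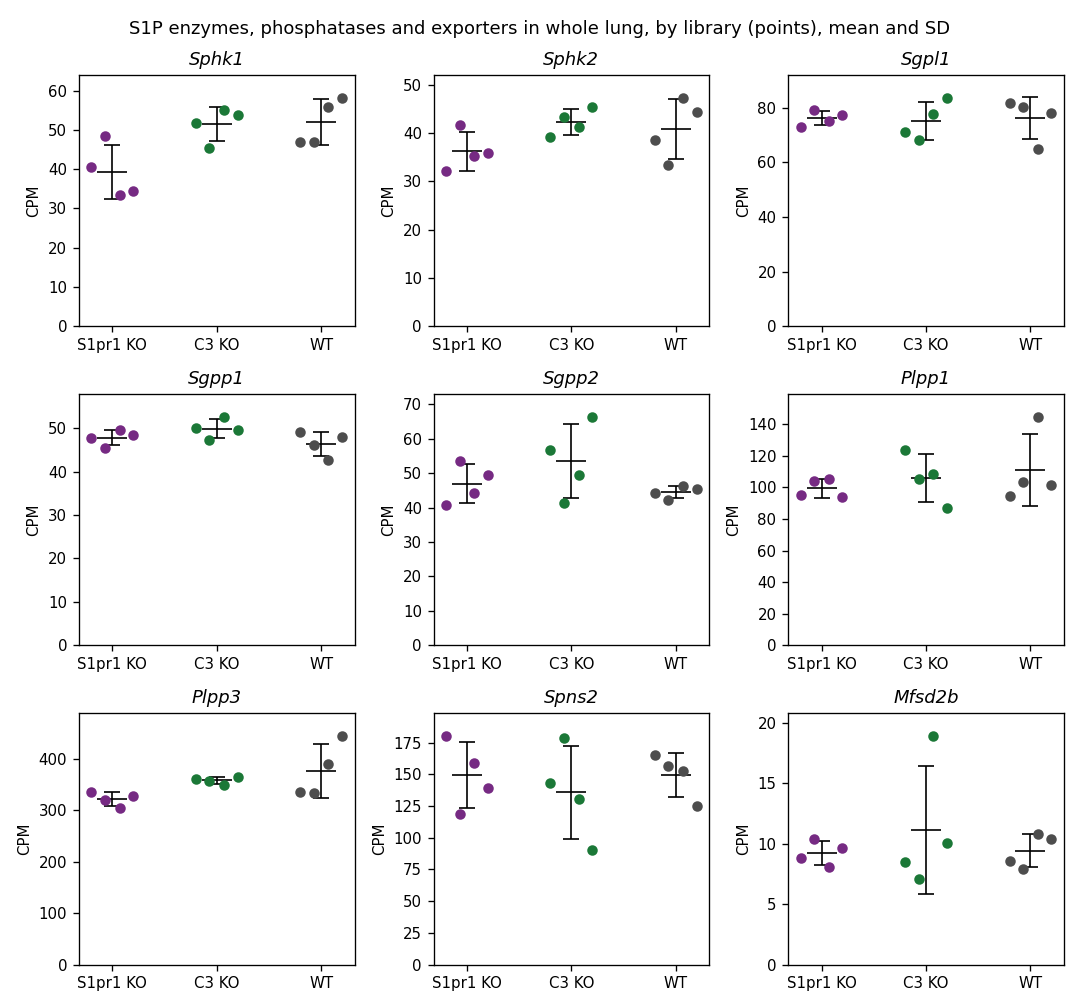
CPM of each gene in each library (points), with the mean and SD of the 4 libraries of S1pr1 KO, C3 KO and WT; every axis starts at 0. Sphk1 is lower than every WT library in 3 of 4 S1pr1 KO libraries, the Plpp3 points of S1pr1 KO lie below those of C3 KO, and a single C3 KO library stands out for Mfsd2b.

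Sgpl1, the lyase that cleaves S1P irreversibly, did not differ detectably between genotypes. The gene (ENSMUSG00000020097) lies on chromosome 10 between 60934421 and 60983482, minus strand. Its CPM values were 73.1, 79.1, 75.0 and 77.4 in S1pr1 KO, 71.2, 68.2, 77.7 and 83.7 in C3 KO and 81.9, 80.2, 64.8 and 78.2 in WT. All 4 S1pr1 KO libraries lay within the WT range. The ratio to WT was 0.999 in S1pr1 KO with a 95% interval of 0.883 to 1.13 (edgeR adjusted p = 0.993), and 0.986 in C3 KO with an interval of 0.872 to 1.12 (edgeR adjusted p = 0.959).

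Sgpp1, the broadly expressed S1P phosphatase of the endoplasmic reticulum, varied least of the 9. The gene (ENSMUSG00000021054) lies on chromosome 12 between 75761023 and 75782503, minus strand. Levels were 47.8, 45.4, 49.6 and 48.4 CPM in S1pr1 KO, 50.1, 47.3, 52.6 and 49.7 in C3 KO and 49.0, 46.1, 42.6 and 47.9 in WT. Its SD within groups was 0.070 on the log2 scale, and 6.60% of all genes tested had a smaller one. C3 KO 1, 3 and the library labelled C3 KO 4 lay above every WT library, by small margins. Its fold change on the log2 scale was 0.11 in C3 KO against WT (SE 0.058, edgeR adjusted p = 0.539) and 0.043 in S1pr1 KO against WT (SE 0.058, edgeR adjusted p = 0.755).

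Sgpp2, the second S1P phosphatase, which inflammatory signals are known to induce, was highest in C3 KO by value. The gene (ENSMUSG00000032908) lies on chromosome 1 between 78286982 and 78396926, plus strand. Its CPM values were 40.7, 53.4, 44.3 and 49.5 in S1pr1 KO, 56.9, 41.5, 49.4 and 66.4 in C3 KO and 44.3, 42.1, 46.3 and 45.5 in WT. C3 KO 1 and 3 and the library labelled C3 KO 4 were above every WT library, but C3 KO 2 was below every one. The WT libraries spanned 42.1 to 46.3 CPM, and the mean was 53.5 ± 10.6 CPM in C3 KO against 44.6 ± 1.80 CPM in WT (SD, n = 4 each). The log2 fold change was 0.27 in C3 KO against WT (SE 0.13, edgeR adjusted p = 0.469), 0.077 in S1pr1 KO against WT (SE 0.13, edgeR adjusted p = 0.801) and -0.19 in S1pr1 KO against C3 KO (SE 0.13, edgeR adjusted p = 0.578). Sgpp2 shares 2315 bases with Farsb, a transfer RNA synthetase gene on the other strand with a mean of 28.7 CPM.

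Plpp3, a lipid phosphate phosphatase of the cell surface that removes S1P and lysophosphatidic acid and is abundant in endothelium and stroma, was lowest in S1pr1 KO by value. The gene (ENSMUSG00000028517) lies on chromosome 4 between 105014544 and 105089961, plus strand. Its CPM values were 336, 321, 305 and 328 in S1pr1 KO, 362, 357, 349.6 and 366 in C3 KO and 336, 333, 390.3 and 445 in WT. S1pr1 KO 3, 4 and the library labelled S1pr1 KO 2 lay below every WT library, while S1pr1 KO 1 matched the lower WT libraries. Against WT its log2 fold change was -0.22 (SE 0.084, edgeR adjusted p = 0.185), and without WT 4 it was -0.13. Summed pan-endothelial genes were also below every WT library in all 4 S1pr1 KO libraries, at 5669 to 6285 CPM against 6417 to 6941 CPM in WT. With the pan-endothelial score as a covariate the Plpp3 value was -0.25 (edgeR adjusted p = 0.236). Over the 12 libraries Plpp3 had a Pearson r of 0.14 with that score, and of 0.0030 without WT 3 and WT 4. With the mammary epithelial score its r was -0.67, and -0.71 without WT 3 and WT 4. These are descriptions with no test. Plpp3 was lower in all 4 S1pr1 KO libraries than in all 4 C3 KO libraries, the only such separation among the 9 genes in the 3 comparisons. Groups separated in that direction for 2.84% of all genes in that comparison, and the fitted value was -0.15 (SE 0.084, edgeR adjusted p = 0.496). In C3 KO against WT it was -0.068 (SE 0.084, edgeR adjusted p = 0.820).

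Plpp1, a related surface phosphatase with a broad substrate range, gave -0.16 in S1pr1 KO against WT (SE 0.13, edgeR adjusted p = 0.572) and -0.067 in C3 KO against WT (SE 0.13, edgeR adjusted p = 0.90). The gene (ENSMUSG00000021759) lies on chromosome 13 between 112937326 and 113004428, plus strand. Levels were 95.01, 104, 106 and 93.7 CPM in S1pr1 KO, 124, 106, 108 and 86.8 in C3 KO and 94.8, 104, 145 and 102 in WT. WT 3 was the highest of all 12, and the other WT libraries lay among the S1pr1 KO values. Without WT 3 the value of C3 KO against WT was 0.090 in place of -0.067. Plpp1 shares 477 bases with Mtrex, a gene on the other strand with a mean of 57.6 CPM. As the strand setting of the count is not given, Plpp1 reads may include some from it.

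The exporters serve different compartments. Spns2 releases S1P from endothelial cells and is the main source of lymph S1P in mice, while Mfsd2b releases it from red cells and platelets. A RefSeq promoter window of each is shown since the library that stood out in each transcript also stood out in markers of the cell types just named for it, as described next. Each runs from 250 bases before to 50 bases after the start, from RefSeq on GRCm38.p6, a build other than that of the deposited coordinates, and capitals mark the letters GATAA and CACCC on either strand, core letters of sites for the erythroid factors GATA1 and KLF1. The Mfsd2b window is chr12:4874310-4874609 and the Spns2 window chr11:72474978-72475277, both given along the minus strand of the chromosome, on which each gene lies. By the shift between builds at Sphk1, also on chromosome 11, the Spns2 start would fall inside the deposited gene, not at its 5' end. The Spns2 window therefore need not be the promoter of the transcripts counted.
Mfsd2b: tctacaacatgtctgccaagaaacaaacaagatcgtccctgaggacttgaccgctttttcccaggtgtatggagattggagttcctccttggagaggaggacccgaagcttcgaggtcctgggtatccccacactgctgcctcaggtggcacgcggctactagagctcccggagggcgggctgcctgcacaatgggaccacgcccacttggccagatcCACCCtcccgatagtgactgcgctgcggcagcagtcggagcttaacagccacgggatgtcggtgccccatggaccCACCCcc
Spns2: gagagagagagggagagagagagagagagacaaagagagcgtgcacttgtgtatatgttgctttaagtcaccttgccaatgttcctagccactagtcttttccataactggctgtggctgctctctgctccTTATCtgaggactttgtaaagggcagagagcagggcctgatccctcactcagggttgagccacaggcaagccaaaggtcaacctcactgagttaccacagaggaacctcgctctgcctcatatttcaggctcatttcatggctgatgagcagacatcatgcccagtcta

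The Mfsd2b window holds CACCC at 2 places and GATAA at 0, and the Spns2 window holds GATAA, read on the other strand as TTATC, at 1 place and CACCC at 0. The motifs do not overlap in letters. Among 32851 promoter windows of the same length, 57.5% hold CACCC and 25.4% hold GATAA, so these matches are common letters and describe the windows only.

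Mfsd2b did not differ detectably between S1pr1 KO and WT, and within C3 KO a single library stood out. The gene (ENSMUSG00000037336) lies on chromosome 12 between 4912440 and 4924359, minus strand. Its CPM values were 8.78, 10.4, 8.10 and 9.65 in S1pr1 KO, 8.44, 7.11, 18.9 and 10.1 in C3 KO and 8.59, 7.93, 10.8 and 10.4 in WT. C3 KO 3 was far above the other 11 libraries, which spanned 7.11 to 10.8 CPM. On the log2 scale Mfsd2b was 0.24 in C3 KO against WT (SE 0.25, edgeR adjusted p = 0.782), but -0.13 without C3 KO 3. It was -0.031 in S1pr1 KO against WT (SE 0.25, edgeR adjusted p = 0.968) and -0.27 in S1pr1 KO against C3 KO (SE 0.25, edgeR adjusted p = 0.708). That last value was 0.10 without C3 KO 3. The 95% interval of the ratio of S1pr1 KO to WT ran from 0.671 to 1.43, in a fit that pools the spread of all 3 groups. The coefficient of variation of its CPM was 10.8% in S1pr1 KO, 47.8% in C3 KO and 14.7% in WT.

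C3 KO 3 also held the most red cell and platelet RNA. Its 19 erythroid genes, led by the globins Hbb-bs, Hba-a1 and Hbb-bt, summed to 24838 CPM, against 1289 to 4491 CPM in the other 3 C3 KO libraries, 1296 to 3036 CPM in S1pr1 KO and 983 to 2721 CPM in WT. Its 14 platelet and megakaryocyte genes summed to 485 CPM, against 89.9 to 141 CPM in the other C3 KO libraries, 132 to 168 CPM in S1pr1 KO and 136 to 179 CPM in WT. Itga2b, the platelet integrin, was at 84.8 CPM there and Gp1bb of the platelet receptor complex was listed at 0 in all 12 libraries. Neutrophil genes summed to 1322 CPM in C3 KO 3, against 139 to 511 CPM in the other 11. C3 KO 1 held the second highest erythroid sum (4491 CPM) with 8.44 CPM of Mfsd2b, and WT 3 the lowest (983 CPM) with 10.8 CPM. The erythroid score is the mean log2 CPM of 17 tested erythroid genes, and the platelet score was made likewise. Mfsd2b had a Pearson r of 0.59 with the erythroid and 0.69 with the platelet score. Without C3 KO 2 and C3 KO 3 these were -0.62 and -0.19, a description with no test. With the erythroid score as a covariate, the Mfsd2b value in C3 KO against WT was -0.086. The part of blood cell RNA in the Mfsd2b levels was not tested.

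**Figure D4:**
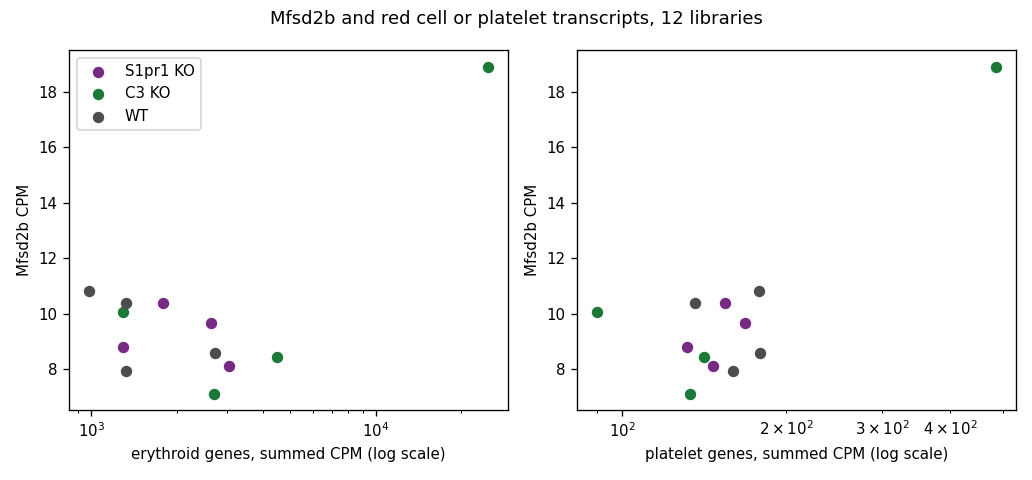
Mfsd2b CPM of each library (points) against the summed CPM of erythroid genes (left, log axis) and of platelet genes (right, log axis), with S1pr1 KO, C3 KO and WT in different colours. C3 KO 3 is at 18.9 CPM of Mfsd2b with the highest sum in both panels, and the other 11 libraries lie between 7.11 and 10.8 CPM.

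Spns2 did not differ detectably by genotype, although its level spanned 2.00 times between the lowest and the highest library. The gene (ENSMUSG00000040447) lies on chromosome 11 between 72342464 and 72380730, minus strand. Its CPM values were 180.2, 119, 159 and 139 in S1pr1 KO, 143, 179, 131 and 90.2 in C3 KO and 165, 157, 152 and 125 in WT. The library labelled C3 KO 4 was the lowest of the 12 and the library labelled S1pr1 KO 2 the next. The log2 fold change was -0.0042 in S1pr1 KO against WT (SE 0.18, edgeR adjusted p = 0.994), -0.14 in C3 KO against WT (SE 0.18, edgeR adjusted p = 0.830) and 0.14 in S1pr1 KO against C3 KO (SE 0.18, edgeR adjusted p = 0.805). Leaving out the lowest of them gave 0.015 in C3 KO against WT and -0.020 in S1pr1 KO against C3 KO, and leaving out the next gave 0.090 in S1pr1 KO against WT. Spns2 shares 131 bases with Mybbp1a, a gene on the other strand with a mean of 91.7 CPM.

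The library labelled C3 KO 4 was also lowest in endothelial RNA. Its 14 pan-endothelial genes, led by the junction genes Cdh5 and Pecam1 and the receptor gene Eng, summed to 4971 CPM, against 6541 to 7307 CPM in the other C3 KO libraries, 5669 to 6285 CPM in S1pr1 KO and 6417 to 6941 CPM in WT. The same library had the highest alveolar macrophage sum, 1926 CPM, against 547 to 874 CPM in the other 11. Across the 12 libraries the Spns2 level, on the log2 CPM scale, had a Pearson r of 0.80 with the pan-endothelial score, the mean log2 CPM of those genes, and of 0.46 without those labelled C3 KO 4 and S1pr1 KO 2. Sgpp2 ran the other way from Spns2 (Pearson r = -0.87, Spearman rho = -0.85, n = 12 libraries), with r = -0.86 without C3 KO 1 and the library labelled C3 KO 4 and -0.88 after the group means were removed. With the pan-endothelial score Sgpp2 had r = -0.75, and -0.68 without C3 KO 1 and the library labelled C3 KO 4. These values come from the same libraries and share their depth, and the pair was the most strongly related of the 36 among the 9 genes, so they are a description with no test. With the pan-endothelial score as a covariate, Spns2 was at 0.28 in S1pr1 KO against WT and 0.055 in C3 KO against WT. The pan-endothelial sums of S1pr1 KO all lay below those of WT, so that fit does not separate endothelial content from genotype. The part of endothelial content in the Spns2 levels was not tested.

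**Figure D5:**
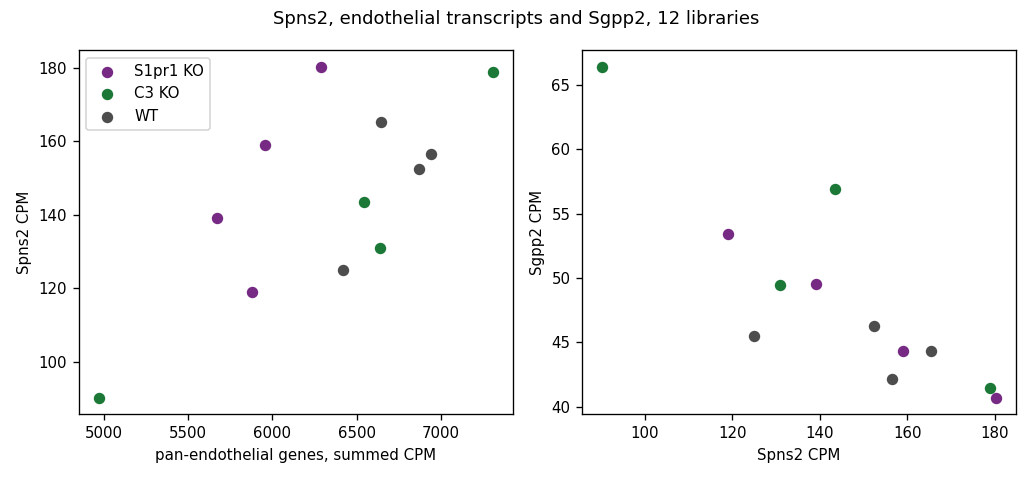
Left, Spns2 CPM of each library (points) against the summed CPM of 14 pan-endothelial genes; right, Sgpp2 CPM against Spns2 CPM, with S1pr1 KO, C3 KO and WT in different colours and axes that do not start at 0. The library labelled C3 KO 4 is lowest in Spns2 (90.2 CPM) and in endothelial genes (4971 CPM) and highest in Sgpp2 (66.4 CPM), and Sgpp2 tends to be lower where Spns2 is higher.

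Of 40 further genes of the pathway, which include the S1P receptors, ceramide synthases, ceramidases and enzymes of sphingolipid supply, 37 were tested. Acer1, Apom and Etnppl, a ceramidase, the carrier of S1P in plasma and an enzyme named for phosphoethanolamine breakdown, were too low. In S1pr1 KO against WT 1 of 37 fell and 0 rose in edgeR, beside 0.534% of all genes that fell and 0.821% that rose. Libraries of the groups were fully apart for 2 of 37 upward and 3 of 37 downward, beside 6.16% and 5.18% of all genes. The gene that fell was S1pr4, an S1P receptor of lymphocytes and other blood cells. S1pr4 was at 18.1, 17.6, 17.6 and 14.1 CPM in S1pr1 KO, at 30.8, 33.2, 31.8 and 21.5 CPM in C3 KO, and at 28.6, 22.1, 25.9 and 26.6 CPM in WT, so that every S1pr1 KO library lay below every other one. Its log2 fold change was -0.62 against WT (SE 0.13, edgeR adjusted p = 0.0466) and -0.80 against C3 KO (SE 0.13, edgeR adjusted p = 0.0693, DESeq2 adjusted p = 2.3e-05). The call against WT was at the edge: it was lost without any one of the 4 S1pr1 KO or 4 WT libraries, without C3 KO 1 or C3 KO 2, with limma on FPKM (adjusted p = 0.0553) and with the pan-endothelial score as a covariate (edgeR adjusted p = 0.0979), at values from -0.68 to -0.46. B cell genes summed to 41.7 to 133 CPM in S1pr1 KO, 57.7 to 212 CPM in C3 KO and 85.0 to 209 CPM in WT. These sums and the T cell sums were lower in S1pr1 KO by median, and their part in the S1pr4 value was not tested.

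The other pathway genes of lowest p in S1pr1 KO against WT did not pass in edgeR. Asah2, the neutral ceramidase that supplies sphingosine, was at 0.27 (SE 0.073, edgeR adjusted p = 0.0832), Cerk, the ceramide kinase, at -0.40 (SE 0.11, edgeR adjusted p = 0.0892), and S1pr1 itself at -0.85 (SE 0.29, edgeR adjusted p = 0.153). DESeq2 called 3 of 37, Asah2, Cerk and S1pr4, beside its 6.34% of all genes, and voom called these and S1pr1, 4 of 37, beside 4.59%. At an unadjusted edgeR p below 0.05 there were 7 of 37, beside 18% of all genes. In C3 KO against WT edgeR, DESeq2 and voom each called 0 of 37. Of all genes, edgeR called 0.00494% in each direction, DESeq2 called 0.878% and voom 0.104%. There, 3 of 37 had an unadjusted edgeR p below 0.05, beside 11% of all genes. Groups were fully apart for 0 of 37 upward (3.0% of all genes) and 1 downward (3.09%). Lowest in p were Ugcg, which makes glucosylceramide (-0.25, SE 0.092), Hdac1, a histone deacetylase that nuclear S1P binds (-0.16, SE 0.065), Spns3, a relative of Spns2 (-0.69, SE 0.29), and the ceramide synthase Cers5 (-0.12, SE 0.053), and their edgeR adjusted p ran from 0.368 to 0.460. In S1pr1 KO against C3 KO edgeR called 0 of 37, beside 0.0% of all genes. DESeq2 and voom each called 1 of 37, S1pr4, beside 1.57% of all genes with DESeq2 and 0.178% with voom, and 7 of 37 were below 0.05 before adjustment in edgeR, beside 12%. Groups were fully apart for 2 of 37 upward (3.55% of all genes) and 4 downward (2.84%). After S1pr4 the lowest were Spns1, a lysosomal relative of Spns2 (-0.22, SE 0.068), Asah2 (0.21, SE 0.073) and Sptlc1, a subunit of the serine palmitoyltransferase that starts sphingolipid synthesis (-0.14, SE 0.050), whose edgeR adjusted p ran from 0.265 to 0.303. The median log2 fold change of the 37 was -0.073 in S1pr1 KO against WT, -0.047 in C3 KO against WT and -0.013 for S1pr1 KO over C3 KO.

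The protein-coding genes whose log2 CPM ran most like each member over the 12 libraries, among 13953 with a mean of at least 1 CPM, were different for each. For Sphk1 they were Igfbp6, an insulin-like growth factor binding protein, Adamtsl4 and the polycystin Pkd2, each with a Pearson r of 0.92, and with 0.81 to 0.91 once S1pr1 KO 3 and S1pr1 KO 4 were left out. For Sphk2 they were the desaturase Scd2 (0.97), Dalrd3 (0.93) and Iah1 (0.92), with 0.92 to 0.96 without S1pr1 KO 1 and WT 2. For Sgpl1 they were the costimulatory ligand Cd86 (0.92), the haem exporter Flvcr1 (0.91) and Siae (0.89), with 0.76 to 0.88 without C3 KO 2 and WT 3. Sgpp1 ran most like Rp2, Zfp971 and Srpk2 (0.92 to 0.93), with 0.76 to 0.83 without C3 KO 3 and WT 3. Sgpp2 ran most like the ubiquitin ligase Ubr2 (0.93), Tarsl2 (0.90) and Pon3 (0.90), at 0.87, 0.66 and 0.89 without C3 KO 1 and the library labelled C3 KO 4. For Spns2 they were Traf7 (0.97), the kinase Mapk3 (0.96) and the transcription factor Tcf3 (0.94), which kept 0.87 to 0.92 with the pair labelled C3 KO 4 and S1pr1 KO 2 left out.

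Mfsd2b, for which 5 genes were taken since its level varied most, ran most like Gabarapl2 (0.92), Tfdp2 (0.89), Mxi1 (0.89), Isca1 (0.89) and Tent5c (0.87). These values leaned on C3 KO 3: without C3 KO 2 and C3 KO 3 they were 0.66, 0.69, 0.72, 0.51 and 0.17. For Plpp1 the genes were Zbtb39 (0.90), Fam117b (0.86) and Fbxo31 (0.86), at 0.68, 0.56 and 0.67 without WT 3 and the library labelled C3 KO 4. For Plpp3 they were Mif4gd (0.90), Dgcr2 (0.90) and St6galnac5 (0.88), at 0.73, 0.67 and 0.67 without WT 3 and WT 4. As the highest of 13953 values on 12 points that share libraries, these correlations are descriptions with no test.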

How the data were processed

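Whole-lung RNA of 12 libraries was analysed, 4 for each of 3 genotypes, grouped by the genotype labels; replicate numbers follow the order of deposition. The deposited table holds whole-number read counts per gene, 1 column per library. The submitters' processing notes name STAR, CASAVA and the builds GRCm39 and mm39. Which program counted the reads, with what strand setting and on which gene annotation, is not stated in the sources used here. The authors' FPKM values are per kilobase of the gene length listed in the table and served to compare genes with each other.

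Tests on counts used edgeR 4.0.16 under R 4.3.3: filterByExpr, TMM scaling (factors 0.97 to 1.04), a quasi-likelihood fit with a mean per group over the 12 libraries (9 residual degrees of freedom) and Benjamini-Hochberg adjustment over 20229 genes at 0.05. The SE was taken as the absolute log2 value over the square root of F. The fit was also run on counts simulated from its own dispersions with planted changes. Those counts hold no shifts of single libraries, so that run does not show how the fit handles them. Intervals are unadjusted 95% intervals. The alternatives were DESeq2 1.42.0, limma 3.58.1 voom with quality weights, RLE scaling, no filter, fits of 2 groups alone, limma on log2(FPKM + 0.1), erythroid and pan-endothelial scores (mean log2 CPM, prior count 2) as covariates, and leaving out each library. A fit without both the library labelled S1pr1 KO 2 and that labelled C3 KO 4 was chosen after seeing the data. Members and lists were chosen with earlier results of these data known. The rule for named genes took all 9 members, the targeted genes, the 4 pathway genes of lowest p per comparison and any called, the 3 genes most correlated with each member (5 for the most variable), and the 3 most abundant markers of a list.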

Additional observations from a re-analysis of the deposited data

How the results depend on the processing

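Of 567 fold changes recomputed for the 9 genes, 519 kept their direction and side of the threshold, 45 changed sign and 3 newly passed, all Sphk1 in S1pr1 KO against WT. There, 1 of the 9 genes was called with DESeq2, with voom and without both libraries whose targeted gene went against the label, against 0 in edgeR with all libraries or with any 1 left out.

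Counts of all genes called moved more. In S1pr1 KO against WT they were 274 in edgeR, 1279 with DESeq2, 928 with voom, 419 with the erythroid and 168 with the pan-endothelial score, 473 without both doubted libraries, and 2 to 571 with 1 library left out. In C3 KO against WT they were 2 in edgeR, 177 with DESeq2, 21 with voom, 1 from the compared groups alone, 6 on FPKM, 1 and 21 with the erythroid and pan-endothelial scores, 31 without that pair and 1 to 32 with 1 left out. In S1pr1 KO against C3 KO they were 0 in edgeR, 317 with DESeq2, 36 with voom, 15 with no filter, 7 on FPKM, 2 with either score, 3 without that pair and 0 to 13 with 1 left out. The cause was not tested.

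Log2 values that changed sign follow. In C3 KO against WT voom gave Plpp1 0.052, the erythroid score Sphk1 0.016 and Mfsd2b -0.086, the pan-endothelial score Sphk2 -0.0055, Spns2 0.055 and Plpp1 0.021, and omission of both doubted libraries Spns2 0.015 and Plpp1 0.022. With 1 library left out there, Sphk1 ran from -0.058 to 0.052, Sphk2 from -0.032 to 0.13, Sgpl1 from -0.086 to 0.031, Spns2 from -0.30 to 0.015, Mfsd2b from -0.13 to 0.41, Plpp1 from -0.14 to 0.090 and Plpp3 from -0.12 to 0.021. In S1pr1 KO against WT voom gave Spns2 0.032, FPKM gave Sgpl1 0.00054, the pan-endothelial score Sgpp2 -0.10 and Spns2 0.28, and omission of that pair Spns2 0.090. With 1 left out, Sgpl1 ran from -0.074 to 0.034, Spns2 from -0.11 to 0.090 and Mfsd2b from -0.10 to 0.040. In S1pr1 KO against C3 KO the erythroid score gave Mfsd2b 0.016, and with 1 left out Sgpl1 ran from -0.034 to 0.069, Spns2 from -0.020 to 0.29 and Mfsd2b from -0.44 to 0.10.

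Against WT, the Sphk1 value in S1pr1 KO ran from -0.52 to -0.33, with adjusted p from 0.0256 to 0.286, over 21 alternatives. No paired analysis was possible because the labels number the libraries in 1 run over all groups and pair none. Mfsd2b, at 243 to 681 counts per library, is the least precise of the 9, with SEs near 0.25 on the log2 scale.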
